A study of Homo sapiens with 66 samples.

Results

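The PIM kinases PIM1, PIM2 and PIM3 were followed through 66 RNAseq libraries of 2 multiple myeloma (MM) cell lines treated with prolyl-tRNA synthetase (ProRS) inhibitors or the proteasome inhibitor carfilzomib (CFZ). The 3 genes were chosen by name, and they are 3 of 20167 genes in the table of counts. All 3 passed the filter on low counts in every comparison. AMO1 cells (labelled AMO-1 WT) gave 36 libraries in 12 groups, and L363-CFZr cells, an L363 line resistant to CFZ, gave 30 libraries in 10 groups. Each group held 3 replicates of cells kept for 6 h or 24 h with DMSO as the solvent control, with NCP26, NCP22, halofuginone (HFG) or halofuginol at 1 µM, or, in AMO1 cells alone, with CFZ, whose dose the labels do not give. NCP22 and NCP26 share a pyrazinamide scaffold, and NCP26 carries a piperidinyl ring in place of the cyclohexyl moiety of NCP22. HFG and halofuginol are febrifugine derivatives. L363-CFZr differs from AMO1 in origin as well as in resistance, and its parental L363 line was not analysed here. Nothing in the labels says that the replicates came from separate cultures begun on different days, so p-values measure the spread between these libraries, which may be technical.

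PIM kinases are serine/threonine kinases that are active as soon as they are translated, so that their amount is set largely by transcription, by mRNA stability and by protein turnover. Cytokines such as IL-6 switch on PIM1 through JAK kinases and STAT3 or STAT5, and the 3 kinases phosphorylate overlapping substrates, among them the pro-apoptotic BAD, the translation regulators EIF4B and 4E-BP1 and the cell cycle inhibitors p21 and p27. PIM2 is known for its high expression in MM cells, where it supports growth and survival, and PIM inhibitors have been tested against the disease. NCP26, NCP22, HFG and halofuginol act on the synthetase that joins proline to its tRNA, whose inhibition leaves uncharged tRNA and switches on the amino acid response through GCN2 and ATF4.

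PIM1 (ENSG00000137193) lies on chromosome 6 at 37170152-37175428 on the plus strand in GRCh38, with a reference transcript of 2703 nt and a GC content of 56.46%. PIM2 (ENSG00000102096) lies on chromosome X at 48913182-48919024 on the minus strand, with a transcript of 2075 nt and a GC content of 55.08%, and its nearest protein-coding neighbour SLC35A2 is 1224 bp away. PIM3 (ENSG00000198355) lies on chromosome 22 at 49960768-49964072 on the plus strand, with a transcript of 2102 nt. Its GC content of 65.37% exceeds that of 96.39% of the genes with a reference transcript, whose median is 49.06%. The microRNA gene MIR6821 lies within PIM3 on the same strand, and no annotated gene overlaps PIM1 or PIM2. The 3 genes share 0% of their 31-mers with one another, and at most 0.183% with other genes, so the counting of reads could hardly mix them. The positions are those of GENCODE v44, since the deposited table holds gene identifiers alone.

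The 250 bases before each RefSeq start site (GRCh38.p14) are shown, 5′ to 3′ on the strand of the gene, because the promoters of the 3 genes differ in base composition and in a motif used by B lineage cells. PIM1 is chr6:37169902-37170151 on the plus strand, PIM2 is chrX:48919025-48919274 on the minus strand and PIM3 is chr22:49960522-49960771 on the plus strand. Capitals mark matches to the octamer ATTTGCAT on either strand, the motif bound by the POU factors OCT1 and OCT2. The octamer was searched after the PIM2 sequence had been seen.
PIM1: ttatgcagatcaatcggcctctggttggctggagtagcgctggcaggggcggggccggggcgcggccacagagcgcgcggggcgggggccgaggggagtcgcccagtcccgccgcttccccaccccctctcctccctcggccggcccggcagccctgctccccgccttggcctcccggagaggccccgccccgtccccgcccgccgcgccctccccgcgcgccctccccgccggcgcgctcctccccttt
PIM2: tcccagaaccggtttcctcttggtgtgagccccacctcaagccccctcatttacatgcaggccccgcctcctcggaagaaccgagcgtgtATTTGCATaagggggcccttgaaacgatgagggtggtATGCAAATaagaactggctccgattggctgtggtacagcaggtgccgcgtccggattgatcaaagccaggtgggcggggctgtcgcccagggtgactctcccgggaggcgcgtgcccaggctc
PIM3: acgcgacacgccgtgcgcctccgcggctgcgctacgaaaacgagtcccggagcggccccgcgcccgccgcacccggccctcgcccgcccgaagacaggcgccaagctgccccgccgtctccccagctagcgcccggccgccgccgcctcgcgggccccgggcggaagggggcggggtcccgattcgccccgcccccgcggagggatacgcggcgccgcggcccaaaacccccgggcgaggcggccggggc
GC content of the windows was 79.6% for PIM1, 61.2% for PIM2 and 82% for PIM3, against a median of 58% over 35116 promoters of the same length. PIM2 held 2 octamers, with their first bases 160 bases and 123 bases before the start, one on each strand and not overlapping. Among all promoters 1.63% held an octamer, and 0.037% held 2 or more. No octamer stood in the windows of PIM1 or PIM3. The amino acid response element (TGATGNAA, in 3.14% of promoters), the STAT motif (TTCNNNGAA, 6.57%), the E-box (CACGTG, 6.34%) and the heat shock element (0.44%) had 0 matches on either strand in the 3 windows, which says only that those letters are not in these bases.

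The libraries held between 1666325 and 5761682 counts for AMO1 and between 2487872 and 6596543 for L363-CFZr. PIM counts ran from 70 for PIM1 in 1 library of AMO1 with HFG at 24 h to 5508 for PIM2. Both lines carried all 10 plasma cell markers, such as SDC1, TNFRSF17 and IRF4, at a mean of at least 5 CPM, and 0 of the 13 listed B cell, T cell, myeloid and stromal markers reached that mean. Levels are given as CPM, the count of a gene scaled to the TMM-adjusted total of its library, and as mean ± SD (n = 3), and since CPM is a share of the RNA of a culture, fewer cells and less RNA per cell cannot be told apart. A change is the log2 fold change of edgeR's quasi-likelihood test with its standard error (SE), and it was called when the Benjamini-Hochberg adjusted p over all genes tested was under 0.05. The columns of the table carry sample numbers from 1 to 22 that recur 3 times, and the libraries were therefore taken as 3 library sets. All AMO1 libraries of 6 h shared 1 set, as did the L363-CFZr libraries of 24 h. The AMO1 groups treated with ProRS inhibitors for 24 h stood in another set than their DMSO control, and so did L363-CFZr with HFG or halofuginol at 6 h and the 2 lines in DMSO. In these comparisons set and treatment or line cannot be told apart.

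PIM2 was the highest of the 3 genes in every one of the 66 libraries. In AMO1 with DMSO at 6 h it reached 529 ± 30.4 CPM per kilobase of reference transcript, against 54.9 ± 0.773 for PIM3 and 45.5 ± 2.7 for PIM1. In L363-CFZr with DMSO at 6 h the values were 367 ± 3.48, 43.2 ± 3.35 and 23.5 ± 1.6 CPM per kilobase. PIM2 held from 62.9% to 87.8% of the summed level per kilobase. Its share was lowest in AMO1 at 6 h with HFG (63.7% ± 1.17) and with NCP26 (67.7% ± 0.583), against 84% ± 0.407 with DMSO, while PIM3 held 27.4% ± 0.566 with HFG against 8.73% ± 0.364 with DMSO. PIM3 stood above PIM1 in 66 of 66 libraries with the length of the reference transcript, but in 13 of 66 with the median length of all annotated transcripts, so the order of PIM1 and PIM3 depends on the length assumed. PIM2 kept 55% to 84% of the sum with that length.

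**Figure D1:**
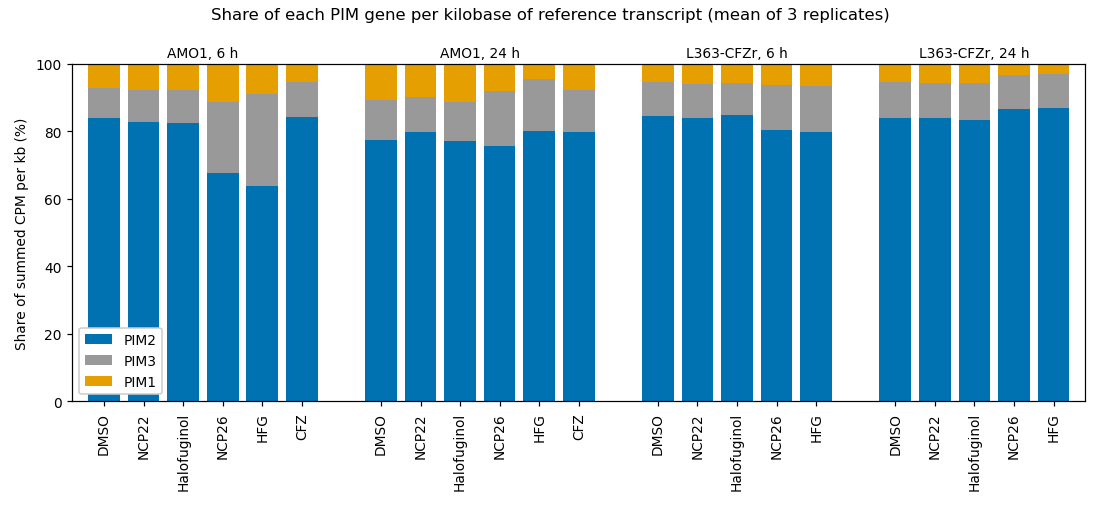
Share of each PIM gene in the summed CPM per kilobase of reference transcript (y axis, percent) in the 22 groups (x axis), as the mean of 3 replicates. PIM2 takes most of the sum everywhere, and the PIM3 share is largest in AMO1 cells with HFG at 6 h, at 27.4%.

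Among the 22 groups, PIM1 ranged from 229.8 ± 6.62 CPM in AMO1 with halofuginol at 24 h down to 29.1 ± 1.31 CPM in L363-CFZr with HFG at 24 h. The top group stood apart from the next, AMO1 with DMSO at 24 h, by more than their SDs, while AMO1 with DMSO and AMO1 with NCP22 at 24 h overlapped. AMO1 with HFG at 24 h was the only AMO1 group within the range of L363-CFZr, and it overlapped L363-CFZr with DMSO at 24 h within their SDs. PIM2 ranged from 1202 ± 51.4 CPM in AMO1 with halofuginol at 24 h to 474 ± 19.8 CPM in L363-CFZr with HFG at 6 h. Its first 6 groups overlapped their neighbours within the SDs, and so did its last 4, which were both lines with NCP26 and with HFG at 6 h. PIM3 ranged from 222 ± 20.6 CPM in AMO1 with HFG at 6 h to 74.7 ± 9.35 CPM in L363-CFZr with HFG at 24 h. All 12 AMO1 groups had a higher mean of PIM3 than all 10 L363-CFZr groups, and within L363-CFZr each group overlapped the next.

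**Figure D2:**
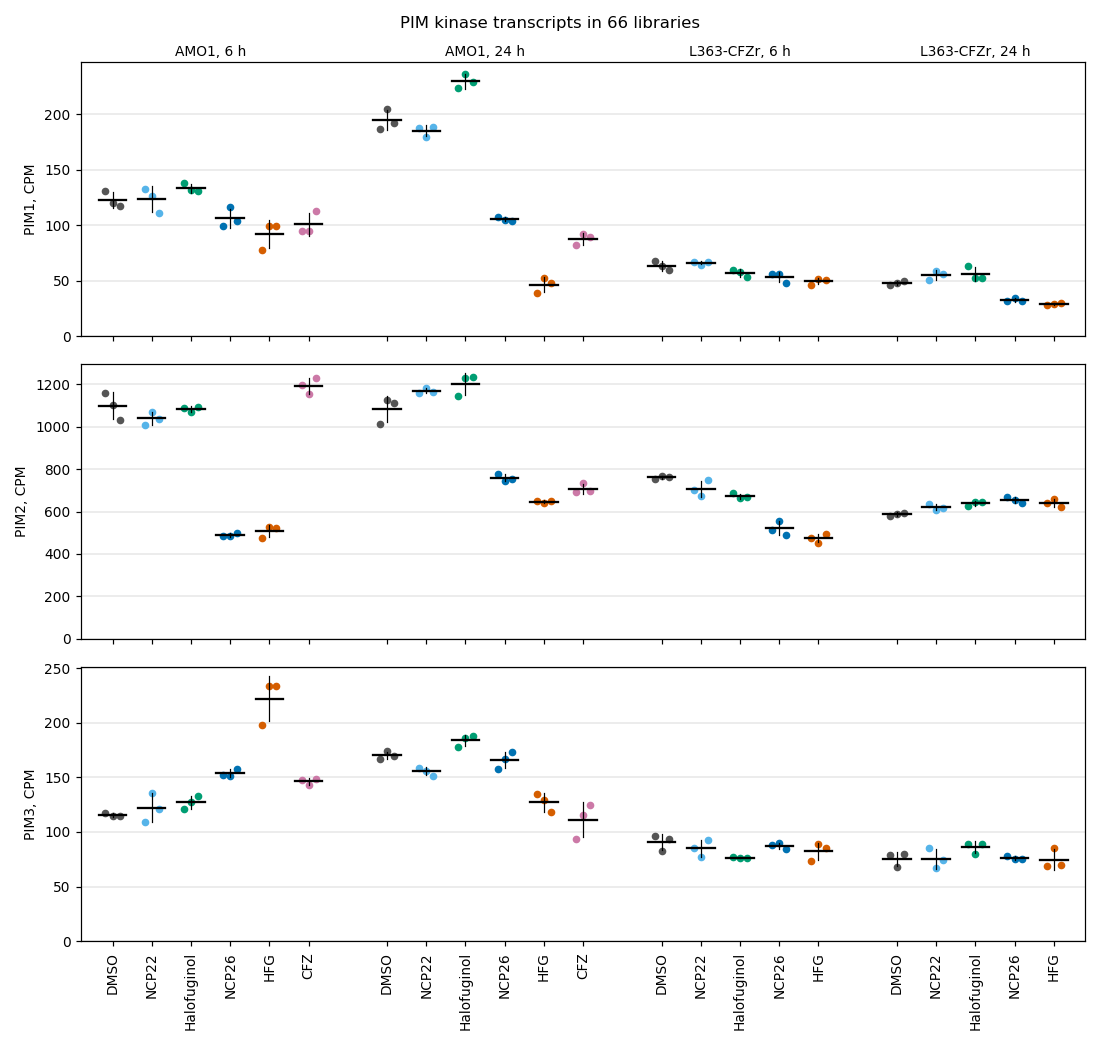
CPM of PIM1, PIM2 and PIM3 (y axis, from 0) in each of the 66 libraries, by treatment, time and line (x axis); horizontal lines are means and vertical lines SDs of 3 replicates. PIM1 falls furthest in AMO1 cells with HFG at 24 h, PIM2 is lowest with NCP26 and HFG at 6 h, and PIM3 is highest in AMO1 cells with HFG at 6 h.

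The baseline comparison asked how the resistant line differs from AMO1 before treatment. At 6 h in DMSO, PIM1 was at 131, 120.2 and 117 CPM in AMO1 and 68.2, 63.1 and 59.6 CPM in L363-CFZr. PIM2 was at 1159, 1103 and 1033 CPM in AMO1 and 753, 766 and 764 CPM in L363-CFZr. The lines did not overlap in either gene, nor in PIM3. The share of all genes without overlap was not counted, here or in the comparisons below. All 3 genes were lower in L363-CFZr, where 60.2% of all genes were called. The log2 difference was -0.99 for PIM1 (SE 0.09, adjusted p = 1.4e-08), -0.56 for PIM2 (SE 0.06, adjusted p = 6.7e-08) and -0.38 for PIM3 (SE 0.09, adjusted p = 0.00095). At 24 h PIM1 was at 187, 205 and 192 CPM in AMO1 and 46.3, 47.7 and 49.8 CPM in L363-CFZr. The 3 genes were again lower in L363-CFZr, with log2 differences of -1.99 for PIM1, -0.85 for PIM2 and -1.14 for PIM3 (adjusted p = 2.7e-05, 0.0015 and 0.00017), where 39.9% of all genes were called. With an offset that corrects for the GC content of transcripts the difference of PIM3 at 6 h was -0.63.

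PIM1 and PIM3 also rose with time in AMO1 with DMSO. From 6 h to 24 h in DMSO PIM1 rose by 0.66 on the log2 scale (SE 0.07, adjusted p = 1.8e-07) and PIM3 by 0.56 (SE 0.07, adjusted p = 1.6e-06), with all 3 libraries of 24 h above all 3 of 6 h. PIM2 stayed at 1098 ± 63.2 CPM at 6 h and 1084 ± 62 CPM at 24 h, a difference of -0.02 with a 95% interval of -0.13 to 0.09. In all, 46.5% of genes were called between these groups of 1 library set. In L363-CFZr the log2 values were -0.36 for PIM1, -0.33 for PIM2 and -0.22 for PIM3 (adjusted p = 0.083, 0.12 and 0.22), in libraries of different sets, and 14.8% of genes were called. 0 of 3 genes were called by edgeR and 1, PIM2, by DESeq2, with 2 at an unadjusted p under 0.05. Without DMSO replicate 2 of 24 h edgeR called PIM1 (-0.38) and PIM2 (-0.36), and 4419 genes in all in place of 1563. Samples of 6 h were frozen overnight before extraction and those of 24 h were kept on ice, so time and storage cannot be told apart.

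NCP26 lowered PIM2 in AMO1 within 6 h and PIM1 by 24 h, and raised PIM3 at 6 h. At 6 h PIM2 fell from 1159, 1103 and 1033 CPM with DMSO to 483, 484 and 498 CPM with NCP26, with no overlap. That is a log2 fold change of -1.15 (SE 0.10, adjusted p = 5.2e-06), or 2.23-fold lower. PIM3 rose from 117, 115 and 114 CPM to 152, 151 and 158 CPM (0.43, SE 0.09, adjusted p = 0.0033). These 2 of 3 genes were called, against 37.3% of all genes. PIM1 was at 99.3, 116 and 104 CPM, below the 3 DMSO libraries, but its change of -0.20 (95% interval -0.40 to 0.01) did not pass (adjusted p = 0.12). With the GC offset the change of PIM3 was 0.73 and that of PIM1 0.02, while PIM2 fell by 0.97.

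At 24 h with NCP26 PIM1 had the larger fall in AMO1. PIM1 was at 108, 105 and 104 CPM, against 187, 205 and 192 CPM with DMSO (-0.90, SE 0.06, adjusted p = 1.7e-13). PIM2 was at 777, 745 and 755 CPM, against 1012, 1125 and 1114 CPM (-0.53, SE 0.04, adjusted p = 1.5e-12). PIM3 overlapped its control, at 158, 167 and 173 CPM against 167, 174 and 169 CPM (-0.05, SE 0.06, adjusted p = 0.49). So 2 of 3 genes fell, against 60.7% of genes called in either direction. NCP26 and DMSO stood in different library sets here. Against NCP22 at 24 h, which shared the set of NCP26, PIM1 and PIM2 differed by -0.82 and -0.63. For PIM3 the value depended on the correction, with 0.17, adjusted p = 0.0092 with the GC offset and -0.44 with a term for library set. In AMO1 that term rests on CFZ at 24 h alone, where replicate 1 stood in another set than replicates 2 and 3.

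In L363-CFZr with NCP26, PIM2 fell at 6 h and PIM1 at 24 h. PIM2 was at 515, 557 and 492 CPM at 6 h against 753, 766 and 764 CPM with DMSO, without overlap (-0.53, SE 0.10, adjusted p = 0.0042), in libraries of 1 set. It was the 1 gene of 3 called, against 18.8% of all genes. PIM1 was at 56.3, 55.8 and 48.5 CPM and PIM3 at 87.7, 90.1 and 84.1 CPM, with changes of -0.23 (adjusted p = 0.20) and -0.04 (adjusted p = 0.81). At 24 h PIM1 fell from 46.3, 47.7 and 49.8 CPM to 31.9, 34.5 and 31.9 CPM (-0.57, SE 0.13, adjusted p = 0.038), the 1 gene of 3 called against 7.09% of all genes. This call was near the threshold and was lost in 5 of 6 fits without 1 library (-0.60 to -0.54, highest adjusted p = 0.17), all but the fit without DMSO replicate 2, though no library of one group reached the other. It passed in a fit of all groups of the line (-0.55, adjusted p = 6.4e-05), where 26.3% of all genes were called. PIM2 was above DMSO in all 3 libraries at 24 h, at 669, 653 and 641 CPM against 579, 590.5 and 594 CPM, with a change of 0.13 (95% interval -0.16 to 0.43) that did not pass. PIM3 gave -0.01 (95% interval -0.28 to 0.26).

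HFG lowered PIM2 in AMO1 as NCP26 did, and it gave the largest rise of PIM3 and the largest fall of PIM1 among the comparisons with DMSO. At 6 h PIM2 was at 475, 528 and 521 CPM, against 1159, 1103 and 1033 CPM with DMSO (-1.11, SE 0.06, adjusted p = 1.1e-09). PIM3 went up to 198, 234 and 233 CPM from 117, 115 and 114 CPM (0.95, SE 0.08, adjusted p = 1.1e-07), a rise of 1.93-fold. PIM1 fell to 77.5, 99.8 and 99.6 CPM (-0.40, SE 0.09, adjusted p = 0.0019). All 3 genes were called, against 54.3% of all genes. None of them overlapped its control, and the share of all genes without overlap was not counted. The PIM1 value was -0.20, adjusted p = 0.03 with the GC offset.

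By 24 h with HFG the 3 genes were all below DMSO in AMO1. PIM1 was at 39.4, 52.7 and 47.7 CPM against 187, 205 and 192 CPM, a log2 change of -2.04 (SE 0.09, adjusted p = 5e-13) or 4.13-fold lower. PIM2 was at 650.0, 639 and 651 CPM (-0.74, SE 0.04, adjusted p = 4.4e-11). PIM3, which had risen at 6 h, was at 135, 129 and 118 CPM against 167, 174 and 169 CPM (-0.42, SE 0.07, adjusted p = 2.9e-05). The 3 calls stood against 59% of all genes. Sets differed between HFG and DMSO, and against halofuginol at 24 h, in the set of HFG, the values were -2.27, -0.88 and -0.53. With the term for library set, which rests on CFZ replicate 1 at 24 h, PIM3 was at -0.81.

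In L363-CFZr with HFG at 6 h, PIM2 was at 476, 453 and 492 CPM against 753, 766 and 764 CPM with DMSO (-0.64, SE 0.05, adjusted p = 6e-10), and PIM1 was at 46.7, 51.4 and 51.2 CPM against 68.2, 63.1 and 59.6 CPM (-0.31, SE 0.10, adjusted p = 0.0083). These 2 of 3 genes were called, against 54.5% of all genes, in libraries of different sets. The PIM1 call did not hold with the GC offset (-0.02, adjusted p = 0.88), with the set term (-0.36) or without DMSO replicate 1 (-0.25) or HFG replicate 1 (-0.26), while PIM2 was called in each of these fits. In L363-CFZr the set term rests on NCP22 at 6 h, where replicate 3 alone shared the set of HFG. PIM3 overlapped DMSO, with -0.12 (adjusted p = 0.27) and with 0.26, adjusted p = 0.01 under the GC offset. At 24 h, within 1 set, PIM1 fell from 46.3, 47.7 and 49.8 CPM to 27.9, 29.1 and 30.5 CPM (-0.74, SE 0.12, adjusted p = 0.043), the 1 gene of 3 called against 1.17% of all genes. Its libraries did not overlap DMSO, but the call was lost in 5 of 6 fits without 1 library (-0.77 to -0.71, highest adjusted p = 0.27). The exception was again the fit without DMSO replicate 2. In the fit of all groups of the line PIM1 passed (-0.73, adjusted p = 6.2e-06), where 17.3% of all genes were called. PIM2 and PIM3 gave 0.10 (95% interval -0.17 to 0.37) and -0.04 (95% interval -0.34 to 0.26).

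CFZ was tested in AMO1 as a drug of another mechanism. At 6 h it left PIM2 high, at 1197, 1154 and 1228 CPM against 1159, 1103 and 1033 CPM (0.13, SE 0.05, adjusted p = 0.085), and the libraries overlapped. PIM3 rose from 117, 115 and 114 CPM to 147, 143 and 149 CPM (0.35, SE 0.08, adjusted p = 0.0012). PIM1 fell to 95, 95 and 113 CPM (-0.27, SE 0.08, adjusted p = 0.019), a call that DESeq2 did not make (adjusted p = 0.063) and that was lost without DMSO replicate 1 (-0.23), CFZ replicate 1 (-0.24) or CFZ replicate 2 (-0.24). So 2 of 3 genes were called, against 26.9% of all genes, and PIM2 passed with the GC offset (0.16, adjusted p = 0.005).

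At 24 h with CFZ all 3 genes fell, against 27% of all genes called. PIM1 was at 82.2, 92.5 and 89.2 CPM against 187, 205 and 192 CPM (-1.09, SE 0.11, adjusted p = 0.00035). PIM2 was at 691, 734 and 695 CPM against 1012, 1125 and 1114 CPM (-0.56, SE 0.11, adjusted p = 0.0086). PIM3 was at 93.9, 115 and 125 CPM against 167, 174 and 169 CPM (-0.56, SE 0.13, adjusted p = 0.015). CFZ replicate 1, the first value of each series, shared its library set with DMSO while the others did not, and it lay below all 3 DMSO libraries in each gene. The call of PIM3 was lost without any 1 of the 3 DMSO libraries (-0.57 to -0.55) and that of PIM2 without DMSO replicate 2 or 3 (-0.54 and -0.55), while PIM1 was called in all 6 such fits.

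**Figure D3:**
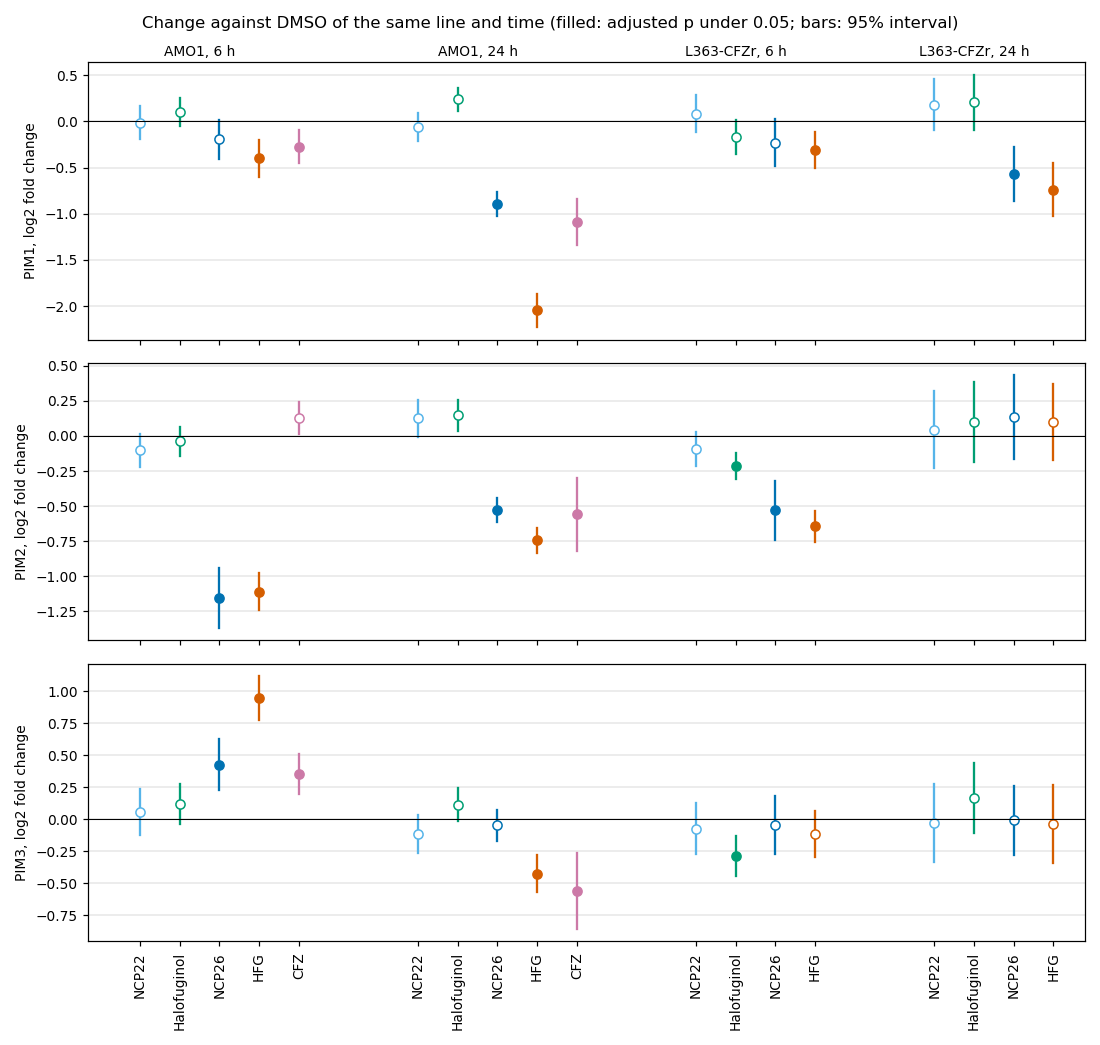
Log2 fold change of each PIM gene against DMSO of the same line and time (y axis) by compound, time and line (x axis), with bars for the 95% interval and filled points for an adjusted p under 0.05. Changes are filled mostly for NCP26, HFG and CFZ; for NCP22 and halofuginol the filled points are PIM2 and PIM3 with halofuginol in L363-CFZr cells at 6 h.

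With NCP22 and halofuginol the PIM genes were called against DMSO in 1 group, L363-CFZr with halofuginol at 6 h. With NCP22 in AMO1 at 6 h, 0 of 3 genes were called by edgeR, 0 by DESeq2 and 0 at an unadjusted p under 0.05, against 13.5% of all genes, and PIM2 was at 1009.6, 1068 and 1038 CPM (95% interval of the change -0.22 to 0.02). PIM3 passed at 6 h with the GC offset, with NCP22 (0.27, adjusted p = 0.037) and with halofuginol (0.28, adjusted p = 0.037). At 24 h PIM1 was at 188, 179.7 and 188 CPM (interval -0.21 to 0.09), and 0% of all genes were called by edgeR, with 638 at an unadjusted p under 0.05 and 3 by DESeq2. In L363-CFZr with NCP22, 0% of genes were called at 6 h and 0% at 24 h by edgeR, with 666 and 213 at an unadjusted p under 0.05 and 1 and 0 by DESeq2, and PIM2 intervals were -0.21 to 0.03 at 6 h and -0.23 to 0.32 at 24 h.

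Halofuginol in AMO1 gave 0 calls among the 3 genes by edgeR or DESeq2 at 6 h, against 3.62% of all genes, and 0 at 24 h, against 0.183%. At 24 h PIM1 was nevertheless above DMSO in every library, at 224, 237 and 229 CPM against 187, 205 and 192 CPM (0.24, SE 0.06, adjusted p = 0.16), and the unadjusted p was under 0.05 for 2 of 3 genes, in libraries of different sets. In L363-CFZr at 6 h PIM2 was lower with halofuginol (-0.21, SE 0.04, adjusted p = 0.0021), and so was PIM3 (-0.28, SE 0.08, adjusted p = 0.0097), against 25.8% of all genes. These libraries stood in another set than DMSO. Both calls were lost with the GC offset (-0.06 and -0.02) and with the set term (adjusted p = 0.15 and 0.17), and that of PIM3 also without DMSO replicate 1 (-0.25). At 24 h, within 1 set, 0 of 3 genes and 0% of all genes were called by edgeR and 0 by DESeq2, with 410 genes at an unadjusted p under 0.05, and the PIM1 interval was -0.10 to 0.51.

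Compounds of a scaffold were then compared directly at 1 µM, in 12 comparisons over 3 pairs. NCP26 and NCP22, which differ in the ring named above, differed in PIM2 by -1.02 in AMO1 at 6 h (SE 0.09, adjusted p = 1.1e-05) and in PIM3 by 0.40 (SE 0.10, adjusted p = 0.011), 2 of 3 genes against 24.7% of all genes. The PIM3 call was lost without NCP22 replicate 1 (0.32) or 3 (0.37). At 24 h in AMO1 PIM1 was lower with NCP26 (-0.82, SE 0.07, adjusted p = 5.7e-07), as was PIM2 (-0.63, SE 0.06, adjusted p = 6.3e-07), again 2 of 3 against 52%. In L363-CFZr PIM2 was lower with NCP26 at 6 h (-0.45, SE 0.10, adjusted p = 0.0091), 1 of 3 genes against 20.4% of all, and PIM1 at 24 h (-0.75, SE 0.11, adjusted p = 0.00012), 1 of 3 against 34.1%. The PIM2 call at 6 h was lost without NCP22 replicate 1 (-0.45) or 3 (-0.41). Where the pair did not pass, intervals of the difference were -0.36 to 0.06 for PIM1 in AMO1 at 6 h, -0.06 to 0.24 for PIM3 in AMO1 at 24 h (0.33, adjusted p = 0.0011 with the GC offset) and -0.07 to 0.23 for PIM2 in L363-CFZr at 24 h. In L363-CFZr PIM3 gave -0.21 to 0.26 at 6 h and -0.20 to 0.23 at 24 h, and PIM1 gave -0.57 to -0.07 at 6 h, where it passed without NCP26 replicate 2 (-0.33).

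HFG and halofuginol shared a library set in all 4 of their comparisons. In AMO1 the 3 genes differed at 6 h, by -0.50 for PIM1, -1.07 for PIM2 and 0.83 for PIM3 (SE 0.08, 0.05 and 0.07), against 51.7% of all genes. At 24 h they differed by the values given above, against 56.6%. PIM1 then stood at 46.6 ± 6.69 CPM with HFG and 229.8 ± 6.62 CPM with halofuginol, 4.84-fold apart. In L363-CFZr PIM2 was lower with HFG at 6 h (-0.43, SE 0.04, adjusted p = 9.2e-11), the 1 gene of 3 called against 47.3%, and PIM1 at 24 h (-0.95, SE 0.11, adjusted p = 1.6e-05), 1 of 3 against 21.9%. PIM2 at 24 h gave an interval of -0.10 to 0.10 around 0. The intervals of PIM3 were 0.02 to 0.32 at 6 h and -0.40 to -0.01 at 24 h, and that of PIM1 at 6 h was -0.30 to 0.03. PIM3 passed at 6 h with the GC offset (0.28) and without HFG replicate 1 (0.25) and at 24 h without HFG replicate 2 (-0.32).

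NCP26 and HFG, from different scaffolds, lowered PIM2 in AMO1 at 6 h to 489 ± 8.62 CPM and 508 ± 28.8 CPM, with an interval of -0.22 to 0.17 for their difference. PIM3 was lower with NCP26 in every library (-0.50, SE 0.09, adjusted p = 0.055), a difference that missed the threshold with edgeR. It passed with the GC offset (-0.47, adjusted p = 0.029), without the filter on low counts (-0.51, adjusted p = 0.00082) and without NCP26 replicate 1 (-0.52). 0 of 3 genes were called by edgeR and 1 by DESeq2 there, with 1 at an unadjusted p under 0.05, against 0.26% of all genes. At 24 h all 3 genes were higher with NCP26 than with HFG, with PIM1 at 1.14 (SE 0.09, adjusted p = 1.6e-08), PIM2 at 0.21 (SE 0.04, adjusted p = 0.00022) and PIM3 at 0.36 (SE 0.07, adjusted p = 0.00033), against 44.9% of genes. In L363-CFZr 0 of 3 were called by edgeR or DESeq2 at either time, against 0% of genes at 6 h, where 1188 had an unadjusted p under 0.05 and DESeq2 called 0, and 12.9% at 24 h. NCP26 and HFG stood in different library sets in L363-CFZr at 6 h. PIM1 intervals in this line were -0.15 to 0.32 at 6 h and -0.07 to 0.42 at 24 h.

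Whether the lines responded unequally was tested as a difference of effects. The difference of PIM2 was above 0, a smaller fall or none in L363-CFZr, and was called in all 4 tests. With NCP26 the L363-CFZr effect minus the AMO1 effect was 0.61 at 6 h (SE 0.13, adjusted p = 0.014), the 1 gene of 3 called against 2.71% of all genes, and 0.64 at 24 h (SE 0.12, adjusted p = 0.011), 1 of 3 against 5.41%. The call at 6 h was lost in 1 of 12 fits without 1 library, that without DMSO replicate 1 of L363-CFZr (0.60, adjusted p = 0.051). PIM3 gave -0.49 at 6 h (adjusted p = 0.052) and passed with DESeq2 (-0.48, adjusted p = 0.039), with the GC offset (-0.54, adjusted p = 0.011) and without replicate 2 of DMSO (-0.54) or of NCP26 (-0.51) in L363-CFZr. With HFG PIM2 (0.47, SE 0.08, adjusted p = 0.00012) and PIM3 differed at 6 h, 2 of 3 genes against 20.7%, and the PIM3 value of -1.06 (SE 0.12, adjusted p = 1.8e-06) set the rise in AMO1 against a change in L363-CFZr that was not called. At 24 h PIM1 (1.30, SE 0.16, adjusted p = 0.00019) and PIM2 (0.83, SE 0.12, adjusted p = 0.00063) differed, 2 of 3 against 16.9%, and PIM3 passed without DMSO replicate 2 of L363-CFZr (0.34). PIM1 under NCP26 gave intervals of -0.35 to 0.25 at 6 h and 0.04 to 0.57 at 24 h. Library sets entered these differences unevenly, except for NCP26 at 6 h, where each compound shared the set of its own control.

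The effect of a compound at 24 h was likewise compared with that at 6 h. In AMO1 the 3 genes were all called for NCP26 (17.5% of all genes), HFG (39.6%) and CFZ (19.6%). Over this time PIM1 and PIM3 rose in DMSO itself. With NCP26 PIM1 stood at 106.4 ± 8.77 CPM at 6 h and 105.6 ± 2.08 CPM at 24 h. PIM3 with NCP26 stood at 153.7 ± 3.52 CPM and 165.9 ± 7.67 CPM. Measured against DMSO, the effects on PIM1 and PIM3 were lower at 24 h than at 6 h with each drug. That on PIM2 was higher with NCP26 (0.62, SE 0.10) and HFG (0.40, SE 0.07) and lower with CFZ (-0.70, SE 0.12). The largest of these differences was that of PIM1 with HFG, at -1.61 (SE 0.13). In L363-CFZr PIM2 alone was called, with HFG (0.77, SE 0.12, adjusted p = 0.0043), 1 of 3 genes against 12.3%, and PIM1 passed with the GC offset (-0.64, adjusted p = 0.035). With NCP26 the value of PIM2 there was 0.67 (adjusted p = 0.057), or 0.70 without DMSO replicate 2 of 24 h, where it passed. There 0 of 3 genes were called by edgeR and 1 by DESeq2, with 1 at an unadjusted p under 0.05, against 0.691%.

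**Figure D4:**
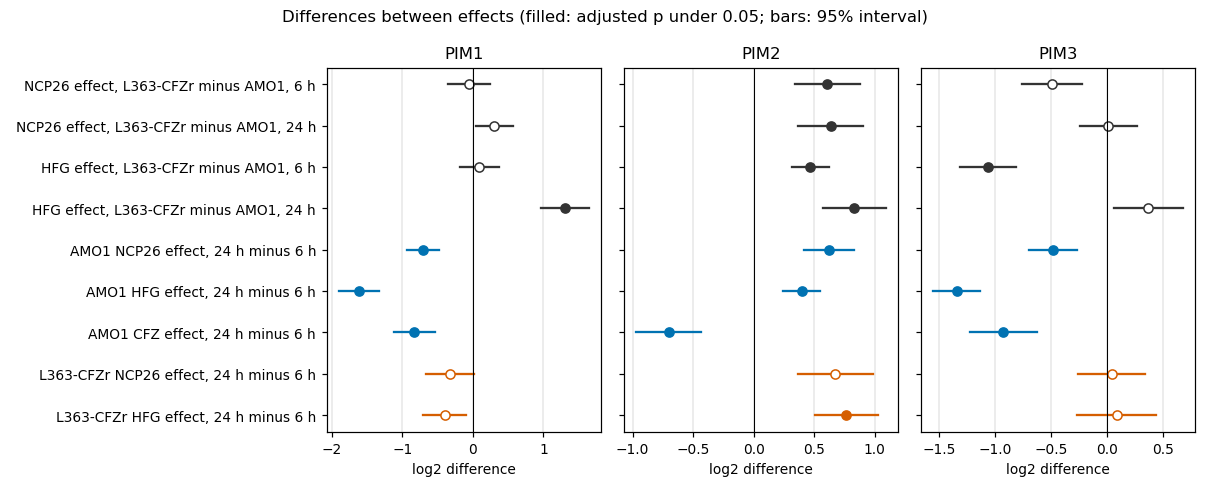
Differences between effects on each PIM gene (x axis, log2), as the effect in L363-CFZr minus that in AMO1 (dark) and as the effect at 24 h minus that at 6 h in AMO1 (blue) and L363-CFZr (orange), with bars for the 95% interval and filled points for an adjusted p under 0.05. PIM2 lies above 0 in every row but that of CFZ, whose value is -0.70.

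The response to each compound was read from genes known to follow it. ASNS and TRIB3, targets of ATF4, rose with NCP26 and with HFG in both lines at both times, by 0.63 to 2.38 for ASNS and by 1.12 to 3.09 for TRIB3 on the log2 scale. HSPA1B, a heat shock gene, rose by 6.29 with CFZ at 6 h and 5.42 at 24 h. With NCP22 and halofuginol ASNS rose in AMO1 at 6 h alone, by 1.01 and 0.70. In that line and time it rose by 0.91 with NCP26 and 0.63 with HFG. With CFZ ASNS rose at 6 h by 0.78 and fell by 0.50 at 24 h. TRIB3 also rose in AMO1 at 6 h with NCP22 (0.89), halofuginol (0.60) and CFZ (1.53), against 1.49 with NCP26 and 1.12 with HFG. At 24 h NCP22, halofuginol and CFZ gave no call of TRIB3. In L363-CFZr it fell with halofuginol at 6 h (-0.29).

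A list of 59 genes was read in the same fits. It held genes of the JAK-STAT pathway above PIM transcription, other STAT targets and PIM substrates. Kinases that share those substrates and genes that act on the stability of PIM proteins were also in it. In AMO1 at 6 h NCP26 raised 16 of 57 tested members (28.1%, against 18.1% of all genes) and lowered 16 (28.1%, against 19.2%). HFG raised 21 (36.8%, against 27.7%) and lowered 18 (31.6%, against 26.6%), and CFZ raised 13 of 56 (23.2%, against 14.1%) and lowered 12 (21.4%, against 12.8%). In AMO1 the shares at 6 h were above those of all genes in both directions. The list was chosen with earlier results of these data known, and differences from the shares of all genes were not tested. At 24 h NCP26 raised 18 of 57 (31.6%, against 29.8%) and lowered 22 (38.6%, against 30.9%). HFG raised 11 (19.3%, against 28.5%) and lowered 32 (56.1%, against 30.5%), with a median of -0.25 for the list, and CFZ raised 7 (12.3%, against 13.1%) and lowered 15 (26.3%, against 14%). In L363-CFZr the counts at 6 h were 7 up and 8 down of 55 with NCP26 (12.7% and 14.5%, against 9.81% and 8.99%), and 21 up and 18 down with HFG (38.2% and 32.7%, against 26.9% and 27.5%). At 24 h they were 4 up and 1 down of 56 with NCP26 (7.14% and 1.79%, against 2.71% and 4.38%), and 2 up and 1 down of 54 with HFG (3.7% and 1.85%, against 0.592% and 0.573%).

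Upstream of the PIM genes, 3 of 8 receptor and JAK genes rose in AMO1 at 6 h with NCP26 and 4 with HFG, and none fell. Of 5 tested feedback inhibitors of JAK-STAT signalling, 3 rose with NCP26 and 4 with HFG, and PTPN6 alone fell. Of all genes 18.1% rose and 19.2% fell with NCP26, and 27.7% rose and 26.6% fell with HFG. With so few members a difference from these shares was not tested. IL6ST, which encodes the gp130 chain shared by receptors of the IL-6 family, went from 125 ± 9.16 CPM with DMSO to 268 ± 38.4 CPM with NCP26 (log2 1.11, SE 0.11, adjusted p = 1.7e-05) and 317 ± 18 CPM with HFG (log2 1.35, SE 0.08, adjusted p = 4.2e-09). SOCS3, a STAT3-induced inhibitor of gp130 signalling, went from 1.83 ± 0.727 CPM to 10.6 ± 3.51 CPM with NCP26 (log2 2.52, SE 0.38, adjusted p = 0.00031) and 19.7 ± 2.96 CPM with HFG (log2 3.42, SE 0.28, adjusted p = 8.3e-08), and its level in DMSO rests on few reads. IL6ST and SOCS3 also rose in AMO1 with CFZ at 6 h, where 14.1% of all genes rose. PTPN6, the phosphatase SHP-1 that acts on JAK kinases, fell with each of the 3 drugs at both times, from 142 ± 2.61 CPM to 13.1 ± 3.83 CPM with CFZ at 24 h (log2 -3.38, SE 0.17, adjusted p = 3.2e-05). At 24 h STAT5A fell with NCP26 (log2 -1.35, SE 0.20, adjusted p = 1.2e-06) and with HFG (log2 -2.31, SE 0.26, adjusted p = 4.2e-07). STAT3 rose in AMO1 with NCP26 at both times and with HFG at 6 h. At 24 h 4 of 5 STAT genes fell with HFG, where 30.5% of all genes fell. The cytokine receptor gene IL21R rose at 24 h with NCP26, HFG and CFZ, by 0.70, 1.49 and 1.32. With HFG at 24 h 3 of 8 receptor and JAK genes rose and 3 fell (IL10RB, IL6R and JAK1), against 28.5% and 30.5% of all genes. In L363-CFZr IL6ST rose with HFG at 6 h, from 139.5 ± 27.1 CPM to 273 ± 17.7 CPM (log2 1.03, SE 0.09, adjusted p = 2.9e-09), in libraries of different sets. There 5 of 8 receptor and JAK genes rose and 2 fell, against 26.9% and 27.5% of all genes.

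The list held 7 STAT targets, a group to which PIM1 also belongs. In AMO1 at 6 h NCP26 raised 3 (BCL2L1, BCL6 and CCND2) and lowered 2, against 18.1% and 19.2% of all genes. HFG raised the same 3 and lowered 3, against 27.7% and 26.6%. CFZ raised 2 of 6 tested and lowered 3, against 14.1% and 12.8%. At 24 h NCP26 raised 3 and lowered 2 (29.8% and 30.9%), and HFG raised 2 and lowered 5 (28.5% and 30.5%). CFZ then raised 1 and lowered 2 (13.1% and 14%). MYC fell in AMO1 at 6 h, from 421 ± 6.47 CPM to 197 ± 7.77 CPM with NCP26 (log2 -1.08, SE 0.09, adjusted p = 6.3e-06) and 181 ± 4.69 CPM with HFG (log2 -1.21, SE 0.07, adjusted p = 1.2e-09). The survival gene MCL1 rose with NCP26 at 24 h, from 1711 ± 24 CPM to 2697 ± 19.3 CPM (log2 0.64, SE 0.03, adjusted p = 6.4e-17), in libraries of another set. MCL1 fell at 24 h with HFG, also in another set, and with CFZ, though with CFZ at 6 h it rose. CCND1 fell with CFZ at 6 h (log2 -2.06, SE 0.34, adjusted p = 8.5e-05), at levels under 10 CPM. BCL2L1, which encodes the survival protein BCL-XL, rose in AMO1 with NCP26, HFG and CFZ at both times, whereas in L363-CFZr it fell at 6 h with NCP26 and with HFG (log2 -0.65, SE 0.09, adjusted p = 3.3e-06 with HFG).

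Among the PIM substrates of the cell cycle, 8 of 8 genes fell in AMO1 with NCP26 at 24 h, where 30.9% of all genes fell, and 6 of 8 fell and CBX3 rose with HFG, where 30.5% of all genes fell, with list medians of -0.51 and -0.46 against 0.01 and -0.00 for all genes. At 6 h in AMO1 4 of 8 fell with NCP26 (19.2% of all genes) and 5 with HFG (26.6%), and none rose. With CFZ 2 rose and 3 fell at 6 h (14.1% and 12.8% of all genes), and 2 fell at 24 h (14%). In L363-CFZr 4 of 8 rose with HFG at 6 h (CBX3, CDKN1A, MARK3 and SKP2) and 2 fell, with a median of 0.21. Of all genes 26.9% rose and 27.5% fell there, in libraries of different sets. In this line NCP26 raised 1 and lowered 1 at each time (9.81% and 8.99% of all genes at 6 h, 2.71% and 4.38% at 24 h). CDKN1A, which encodes the cell cycle inhibitor p21, fell from 419 ± 28.7 CPM to 68 ± 3.35 CPM with NCP26 (log2 -2.61, SE 0.10, adjusted p = 1.3e-08) and 61.7 ± 5.19 CPM with HFG at 6 h (log2 -2.77, SE 0.09, adjusted p = 1.6e-12), and rose with CFZ to 726 ± 48.7 CPM (log2 0.80, SE 0.06, adjusted p = 3.8e-09). In L363-CFZr, where CDKN1A was far lower, it rose from 6.15 ± 1.81 CPM to 13.7 ± 1.01 CPM with NCP26 at 6 h (log2 1.17, SE 0.22, adjusted p = 0.0054). The phosphatase gene CDC25A fell in L363-CFZr in the 4 comparisons, with log2 changes of -0.73 and -1.49 with NCP26 at 6 h and 24 h and of -0.87 and -1.08 with HFG.

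EIF4EBP1, which encodes the translation repressor 4E-BP1, was the most raised member of the list in L363-CFZr in each of its 4 comparisons. It went from 53.4 ± 4.29 CPM to 229 ± 73.9 CPM with NCP26 (log2 2.11, SE 0.20, adjusted p = 6.6e-05) and 185 ± 2.33 CPM with HFG at 6 h (log2 1.83, SE 0.08, adjusted p = 1.9e-15). In AMO1 it rose with HFG at 24 h (log2 1.32, SE 0.09, adjusted p = 2.3e-10), and also with NCP26 at 24 h and with CFZ at 6 h. AKT1, a kinase that shares substrates with the PIM family, fell with NCP26 at 6 h in AMO1 (log2 -1.16, SE 0.11, adjusted p = 1.3e-05) and in L363-CFZr (log2 -0.56, SE 0.14, adjusted p = 0.02). The HSP90 genes, whose products stabilise PIM1 protein, both rose with CFZ at both times, HSP90AA1 from 1012 ± 46.1 CPM to 17062 ± 442 CPM at 6 h (log2 4.08, SE 0.05, adjusted p = 1.9e-24). Both fell at 6 h with NCP26 and HFG in AMO1 and with HFG in L363-CFZr, while HSP90AA1 rose with NCP26 in AMO1 at 24 h. MAP3K5, which encodes the stress kinase ASK1, fell with CFZ at 6 h (log2 -1.25, SE 0.25, adjusted p = 0.00064).

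The genes with the pattern most like each PIM gene were found among 9641 genes of at least 5 CPM in both lines, by the smaller of 2 Pearson correlations of mean log2 CPM, one over the 12 AMO1 groups and one over the 10 L363-CFZr groups. For PIM1 they were MYB (0.93), a transcription factor of blood progenitors, CCND3 (0.91), which encodes cyclin D3, and CHMP7 (0.86). For PIM2 they were ADIPOR1 (0.88), RNF167 (0.88) and HPS6 (0.88). PIM3 had no gene as close, its first being SYS1 (0.72), PRKD2 (0.71) and GFER (0.68). The groups share library sets, times and the contrast of potent and weak compounds, and by Spearman correlation 1 of these 3 genes was among the first 3 for PIM1, 0 for PIM2 and 0 for PIM3.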

How the data were processed

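RNA was sequenced from AMO1 and L363-CFZr cells as poly(A)-selected, strand-specific libraries with RNA input set equal. The authors quantified reads by kallisto pseudo-alignment and deposited whole-number counts per Ensembl gene for 66 libraries. The genome is given as GRCh38 in the methods of the study and as hg19 in the submitters' processing notes, and the annotation is not given in the sources used here. GENCODE v44 on GRCh38 named 95.7% of the 20167 identifiers. No pair of replicates was identical (66 pairs).

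From the counts, each comparison was fitted on its own groups in edgeR 4.0.16 (R 4.3.3), with genes kept by filterByExpr (minimum count 10, minimum total 15; 10235 to 11239 genes tested), TMM scaling and the quasi-likelihood test, Benjamini-Hochberg adjusted over all genes tested. An SE is the absolute log2 fold change over the square root of F. Scripts were tested on simulated data. Alternatives were DESeq2 1.42.0 (test and size factors), no filter, a GC offset (lowess, span 0.3), the replicate number as a block, all groups of the line with or without a library set term, and leaving out each library. List members given with values are up to 3 higher and 3 lower called genes per comparison by size of change, at a mean of at least 5 CPM. Other called members are named by direction alone. The PIM genes, the pathway list and the alternatives were chosen with earlier results of these data known.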

Additional observations from a re-analysis of the deposited data

Results flagged for a closer look

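The effects of a compound on a PIM gene differed between the lines, or between 6 h and 24 h, in 16 tests of the difference itself in edgeR, and these are the results singled out. Between lines, as the effect in L363-CFZr minus that in AMO1, PIM2 differed with NCP26 by 0.61 at 6 h and 0.64 at 24 h, and with HFG by 0.47 at 6 h and 0.83 at 24 h. PIM3 differed with HFG by -1.06 at 6 h, and PIM1 by 1.30 at 24 h. Of these 6, only the difference of PIM2 with NCP26 at 6 h set treated and control libraries of 1 library set against each other in both lines. The part of the library sets in the others was not tested.

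Between times, as the effect at 24 h minus that at 6 h in AMO1, NCP26 gave -0.71 for PIM1, 0.62 for PIM2 and -0.48 for PIM3. HFG gave -1.61 for PIM1, 0.40 for PIM2 and -1.34 for PIM3. CFZ gave -0.83 for PIM1, -0.70 for PIM2 and -0.92 for PIM3. In L363-CFZr the effect of HFG on PIM2 differed by 0.77. In AMO1 the libraries of NCP26 and HFG at 24 h stood in another set than their control, as did those of HFG at 6 h in L363-CFZr. All 16 differences were also called with the GC offset. Groups of 3 libraries were not searched for outlying libraries. Leaving out DMSO replicate 2 of L363-CFZr at 24 h raised the genes called between the times in DMSO from 1563 to 4419. For the difference of lines at 24 h it raised them from 608 to 2407 with NCP26 and from 1883 to 3774 with HFG. That library was in the control of each L363-CFZr comparison with DMSO at 24 h.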

How the results depend on the processing

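The scaling by DESeq2 size factors changed no call of a PIM gene. The direction of each value called in the reported fit was the same under every alternative run. PIM3 in AMO1 NCP26 at 24 h, not called in that fit, was called higher with the GC offset and lower with the library set term. Among the alternatives that kept every library, most changes came with the offset for GC content, and the cause was not tested. In the values that follow for it, the second in a pair is that with the replicate number as a block beside the offset.

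The GC offset turned the sign of values that were not called for PIM1 in AMO1 NCP26 at 6 h (0.016 and 0.014), PIM1 in AMO1 NCP22 at 6 h (0.12 and 0.12), PIM2 in AMO1 NCP22 at 6 h (0.018 and 0.018), PIM2 in AMO1 halofuginol at 6 h (0.042 and 0.042), PIM3 in AMO1 NCP26 at 24 h (0.17 and 0.18), PIM3 in L363-CFZr NCP26 at 6 h (0.17 and 0.17), PIM3 in L363-CFZr HFG at 6 h (0.26 and 0.26), PIM1 in L363-CFZr halofuginol at 6 h (0.0072), PIM3 in L363-CFZr NCP26 at 24 h (0.17 and 0.17), PIM3 in L363-CFZr HFG at 24 h (0.10 and 0.10), PIM2 in AMO1 DMSO over time (0.078 and 0.077), PIM2 in L363-CFZr HFG against halofuginol at 24 h (0.052 and 0.051), PIM1 in L363-CFZr NCP26 against HFG at 6 h (-0.024 and -0.026), PIM3 in L363-CFZr NCP26 against HFG at 6 h (-0.080 and -0.079), PIM3 in NCP26, L363-CFZr minus AMO1, 24 h (-0.013 and -0.011) and PIM3 in L363-CFZr HFG, 24 h minus 6 h (-0.15 and -0.15). It ended the calls of PIM1 in L363-CFZr HFG at 6 h (-0.022 and -0.024), PIM1 in L363-CFZr NCP26 at 24 h (-0.49 and -0.49) and PIM1 in L363-CFZr HFG at 24 h (-0.68 and -0.68). It also ended those of PIM2 (-0.063 and -0.063) and PIM3 (-0.024 and -0.032) in L363-CFZr halofuginol at 6 h. It added calls for PIM2 in AMO1 CFZ at 6 h (0.16 and 0.16) and for PIM3 in AMO1 NCP22 (0.27 and 0.27) and halofuginol (0.28 and 0.27) at 6 h. Of the values whose sign it turned, it called PIM3 in AMO1 NCP26 at 24 h and PIM3 in L363-CFZr HFG at 6 h. PIM3 was also added between NCP26 and NCP22 in AMO1 at 24 h (0.33 and 0.33) and between HFG and halofuginol in L363-CFZr at 6 h (0.28 and 0.28). So was PIM3 in NCP26, L363-CFZr minus AMO1, 6 h (-0.54 and -0.54). The offset without the block added PIM3 between NCP26 and HFG in AMO1 at 6 h (-0.47) and PIM1 in L363-CFZr HFG, 24 h minus 6 h (-0.64). The block beside the offset also ended the call of PIM2 in L363-CFZr NCP26 at 6 h (-0.39), of PIM2 between NCP26 and NCP22 in L363-CFZr at 6 h (-0.30) and of PIM2 in L363-CFZr HFG, 24 h minus 6 h (0.55, adjusted p = 0.052), one of the 16 differences between lines or times given above.

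Without the filter on low counts PIM1 lost its calls at 24 h in L363-CFZr NCP26 (-0.56) and HFG (-0.72), as it did with the replicate block (-0.57 and -0.74), which changed no other call. Leaving out the filter also added a call for PIM3 between NCP26 and HFG in AMO1 at 6 h (-0.51). The replicate numbers share only a number: in 0 of 34 comparisons was every correlation between same-numbered libraries over 0.1, with a range from -0.40 to 0.38. DESeq2 did not call PIM1 in AMO1 CFZ at 6 h (-0.27). It added calls of PIM2 in L363-CFZr DMSO over time (-0.34) and of PIM3 between NCP26 and HFG in AMO1 at 6 h (-0.49). Added too were PIM3 in NCP26, L363-CFZr minus AMO1, 6 h (-0.48) and PIM2 in L363-CFZr NCP26, 24 h minus 6 h (0.69, adjusted p = 3e-07). PIM2 between HFG and halofuginol in L363-CFZr at 24 h turned sign around 0 with DESeq2 (0.0020), with its size factors (0.0020) and without the filter (0.0029).

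A fit of all groups of the line called PIM1 in L363-CFZr NCP26 at 6 h (-0.25, and -0.25 with a term for library set). With that term PIM3 was called in AMO1 NCP26 at 24 h (-0.44), PIM1 was not in L363-CFZr HFG at 6 h (-0.36), and PIM3 turned sign in AMO1 halofuginol at 24 h (-0.27). The calls of PIM2 and PIM3 in L363-CFZr halofuginol at 6 h were lost with the term (-0.32 and -0.45), and that of PIM3 also without it (-0.29). In each line the term rests on a single group split between sets, in which 1 library stood apart.

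Fits that left out 1 library ended calls of PIM1 in AMO1 CFZ at 6 h (-0.35 to -0.23), PIM2 in AMO1 CFZ at 24 h (-0.62 to -0.53), PIM3 in AMO1 CFZ at 24 h (-0.63 to -0.43), PIM1 in L363-CFZr HFG at 6 h (-0.37 to -0.25), PIM1 in L363-CFZr NCP26 at 24 h (-0.60 to -0.54) and PIM1 in L363-CFZr HFG at 24 h (-0.77 to -0.71), where the ranges are those over all such fits and the libraries are named with the results, as are calls that such fits added. They also ended calls of PIM3 in L363-CFZr halofuginol at 6 h (-0.25) and of PIM2 in NCP26, L363-CFZr minus AMO1, 6 h (0.60). Between NCP26 and NCP22 at 6 h they ended those of PIM3 in AMO1 (0.32 and 0.37) and PIM2 in L363-CFZr (-0.45 and -0.41). They turned the sign of values that were not called for PIM1 in AMO1 NCP22 at 6 h (-0.071 to 0.059), PIM3 in AMO1 NCP22 at 6 h (-0.023 to 0.13), PIM3 in L363-CFZr NCP26 at 6 h (-0.11 to 0.0051), PIM3 in L363-CFZr NCP26 at 24 h (-0.054 to 0.018), PIM3 in L363-CFZr HFG at 24 h (-0.15 to 0.023), PIM3 in L363-CFZr NCP22 at 24 h (-0.13 to 0.053), PIM2 in AMO1 DMSO over time (-0.065 to 0.018), PIM3 in L363-CFZr NCP26 against NCP22 at 6 h (-0.035 to 0.092), PIM3 in L363-CFZr NCP26 against NCP22 at 24 h (-0.066 to 0.11), PIM2 in L363-CFZr HFG against halofuginol at 24 h (-0.025 to 0.022), PIM2 in AMO1 NCP26 against HFG at 6 h (-0.053 to 0.014), PIM3 in L363-CFZr NCP26 against HFG at 6 h (-0.015 to 0.13), PIM3 in L363-CFZr NCP26 against HFG at 24 h (-0.031 to 0.14), PIM1 in NCP26, L363-CFZr minus AMO1, 6 h (-0.10 to 0.019), PIM3 in NCP26, L363-CFZr minus AMO1, 24 h (-0.035 to 0.048), PIM1 in HFG, L363-CFZr minus AMO1, 6 h (-0.0022 to 0.14), PIM3 in L363-CFZr NCP26, 24 h minus 6 h (-0.0056 to 0.10) and PIM3 in L363-CFZr HFG, 24 h minus 6 h (-0.017 to 0.15).

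Fits that left out 1 library are not in the ranges that follow, and some of them moved a count further, as given above. Under the alternatives that kept every library, counts of all genes called stayed within 1.5 times in 23 of 43 comparisons. In the other 20 they ranged as follows, with the reported count first: AMO1 NCP22 at 6 h 1443 (595 to 1821), AMO1 halofuginol at 6 h 383 (120 to 672), AMO1 NCP26 at 24 h 6547 (2897 to 6761), AMO1 HFG at 24 h 6328 (3601 to 6687), AMO1 CFZ at 24 h 2886 (2418 to 5200), AMO1 NCP22 at 24 h 0 (0 to 98), AMO1 halofuginol at 24 h 20 (0 to 100), L363-CFZr NCP26 at 6 h 2012 (620 to 2929), L363-CFZr HFG at 6 h 5706 (2180 to 5718), L363-CFZr NCP22 at 6 h 0 (0 to 118), L363-CFZr halofuginol at 6 h 2718 (81 to 2857), L363-CFZr NCP26 at 24 h 757 (156 to 2918), L363-CFZr HFG at 24 h 122 (20 to 1918), L363-CFZr HFG against halofuginol at 24 h 2280 (1407 to 2577), AMO1 NCP26 against HFG at 6 h 28 (17 to 366), L363-CFZr NCP26 against HFG at 6 h 0 (0 to 8), L363-CFZr NCP26 against HFG at 24 h 1354 (859 to 1755), NCP26, L363-CFZr minus AMO1, 6 h 299 (231 to 539), L363-CFZr NCP26, 24 h minus 6 h 76 (3 to 187) and L363-CFZr HFG, 24 h minus 6 h 1316 (205 to 1460). Depth limits PIM1 in particular, which rests on 70 reads in 1 library.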

Other observations

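POU2AF1, which encodes the B cell coactivator OCA-B that binds OCT1 and OCT2 on octamers, ranked 5 of 9641 genes by likeness to PIM2, with a correlation of 0.86 over the 12 AMO1 groups and 0.87 over the 10 L363-CFZr groups. By Spearman correlation its rank was 449.5. It was singled out after the values were seen, because the PIM2 promoter holds 2 octamers, and whether these values are related was not tested.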
